A study of Mus musculus with 4 samples.

Results

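The genes described here encode the proteins of the cytosolic ribosome. They were taken from the count table by symbol: Rps and Rpl genes with a number and at most 1 closing letter (a, l or x), the 3 stalk proteins Rplp0, Rplp1 and Rplp2, and Rpsa. The pattern found 83 rows with 83 different symbols among 55487 genes. It also takes in 7 rows whose symbols end in l, which are paralogs or retrogene copies (Rpl3l, Rpl10l, Rpl39l, Rps27l, Rps4l, Rpl6l and Rpl32l). The other 76 rows are called core genes, 30 of the small subunit and 46 of the large subunit. Cytosolic ribosomal proteins that the pattern misses (Rps3a1, Fau and Rack1 among them) are described separately. A symbol such as Rps18-ps4 marks a processed pseudogene and was not taken.

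RNA came from Langerhans cells, the antigen-presenting cells that live among keratinocytes in the epidermis, isolated from ears of wild-type mice. The imiquimod group (2 libraries) had been treated with imiquimod, which activates Toll-like receptor 7 and inflames mouse skin in a way used to model psoriasis, and the Vaseline group (2 libraries) with Vaseline, the study's negative control. Libraries held 14902782 and 20690182 counts in Imiquimod 1 and Imiquimod 2, against 41998172 and 76028955 counts in Vaseline 1 and Vaseline 2. Dose, time of treatment, age and sex are not given in the sources used here, nor is it said if a group's 2 libraries are from different mice, so p-values measure the spread between these libraries, which may be technical. Description codes begin with AU and WY for the imiquimod libraries and with XZ for both Vaseline libraries. What the codes stand for is not given.

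Each ribosome is built from 1 copy of nearly every core protein, so the genes are known for being expressed together and strongly. Their messages are stable, and most carry a 5′ terminal oligopyrimidine (TOP) tract, a run of C and T at the very start of the transcript through which mTOR signalling controls translation. Free ribosomal proteins also act outside the ribosome: Rpl5 and Rpl11 bind Mdm2 when ribosome assembly fails, which stabilises p53. In dendritic cells, activation is known to change the rate of protein synthesis. In mammalian genomes these genes have left many processed pseudogenes, copies that lack introns and closely match the messages.

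Start regions are shown to let a reader see the tract and how far it varies. Each line holds 50 bases of the gene strand from RefSeq (GRCm38.p6), 30 before and 20 from the annotated start on, with the longest run of C and T near the start in capitals. Rps6 and Rplp2 are strongly expressed members of the 2 subunits. Rpl35a and Rpl7a had some of the lowest fold changes of the core genes, and Rpl37a had the highest.
Rps6: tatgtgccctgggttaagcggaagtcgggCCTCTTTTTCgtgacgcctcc
Rplp2: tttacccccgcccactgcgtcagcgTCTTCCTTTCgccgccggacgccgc
Rpl35a: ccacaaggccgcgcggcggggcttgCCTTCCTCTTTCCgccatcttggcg
Rpl7a: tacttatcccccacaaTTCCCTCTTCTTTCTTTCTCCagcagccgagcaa
Rpl37a: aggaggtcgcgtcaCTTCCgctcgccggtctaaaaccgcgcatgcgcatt

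These windows lie at chr4:86857348-86857397 (minus strand), chr7:141447621-141447670, chr16:33056452-33056501, chr2:26910777-26910826 and chr1:72711230-72711279 (all plus strand), in the order of the lines. Runs of 10, 10, 13 and 21 bases cover or adjoin the annotated start of Rps6, Rplp2, Rpl35a and Rpl7a. For Rpl37a the longest run was 5 bases. The start RefSeq annotates for Rpl37a lies upstream of the gene start in GENCODE release vM21 (chr1:72711290), so its printed window may not hold the start that cells use. Start windows of 61 members were in the table. Within 20 bases of the start, the median longest run of C and T was 7 bases for members and 5 bases over 27025 genes, and 49.2% of members against 18.4% of all genes had a run of at least 8.

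Motifs were searched in 300-base windows, 250 bases before to 50 after the start. The tract-like word CTCTTTC on the gene strand was found in 21.3% of members and 4.60% of all genes, and on either strand in 27.9% and 9.28%. CCGGAAG, a word bound by ETS family factors, was found on either strand in 41.0% of members and 9.93% of all genes. AAGATGGCG, which holds the core letters of the YY1 motif, was found on either strand in 4.92% and 1.64%. The TATA word TATAAA was found on either strand in 11.5% of members and 15.7% of all genes. On the gene strand alone the values were nearly equal, 9.84% and 9.77%. Ribosomal protein promoters are known for lacking a canonical TATA box. These matches describe letters in the windows, not binding.

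Ribosomal protein messages did not separate the groups. Members took 3.55% of all counts in Imiquimod 1 (95% Wilson interval 3.54% to 3.56%) and 1.14% in Imiquimod 2 (1.13% to 1.14%), against 2.26% in Vaseline 1 (2.25% to 2.26%) and 2.59% in Vaseline 2 (2.58% to 2.59%). The imiquimod libraries were thus the highest and the lowest of the 4. Shares averaged 2.35% ± 1.71 in imiquimod and 2.42% ± 0.231 in Vaseline (SD, n = 2 each), a log2 ratio of -0.046, with a two-sided exact permutation p of 1.0. With 2 libraries against 2, the smallest p this test can give is 0.333. Intervals cover counting error only, and the spread between libraries far exceeds them.

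Within imiquimod, the share differed 3.12-fold between the libraries, and within Vaseline 1.14-fold. A background of reads spread over silent genes also differed between libraries. It was 0.533 and 1.28 CPM (counts scaled to a library total of 1000000) per exonic kilobase in Imiquimod 1 and 2, against 0.376 and 0.0936 in Vaseline 1 and 2, measured as the median over 1473 olfactory and vomeronasal receptor genes. Imiquimod 2 thus had the lowest ribosomal protein share and the highest background. Taken over nuclear protein-coding genes at 5 times this background or more, the share was 4.76% and 1.85% in Imiquimod 1 and 2, against 3.08% and 3.45% in Vaseline 1 and 2 (exact permutation p = 1.0, n = 2 each). The 2 imiquimod libraries still enclosed the Vaseline ones. In bulk RNA, fewer cells of a type and less RNA per cell cannot be told apart.

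**Figure D1:**
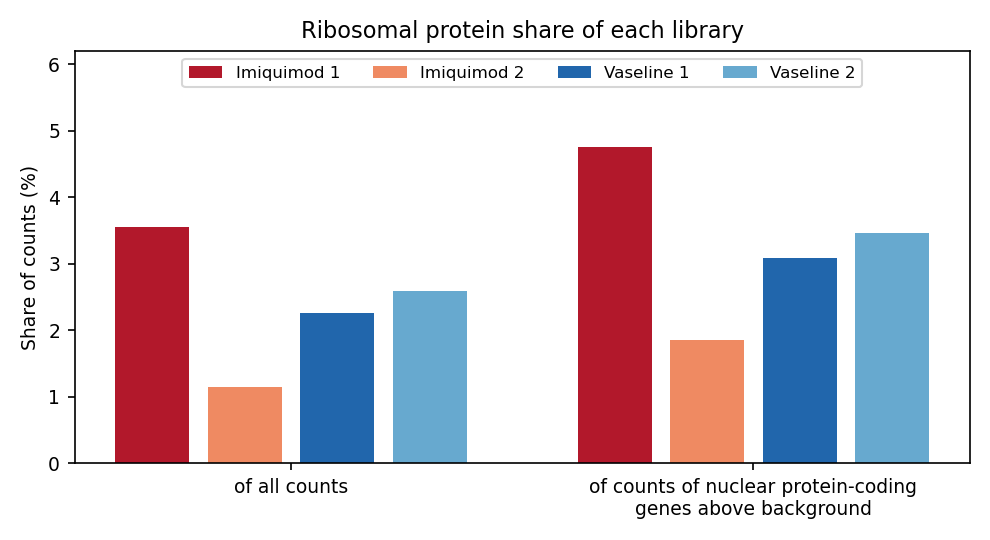
Share of counts on the 83 ribosomal protein genes in each library (%), of all counts (left bars) and of the counts of nuclear protein-coding genes at 5 times the background or more (right bars). On both denominators Imiquimod 1 is the highest library and Imiquimod 2 the lowest, at 3.55% and 1.14% of all counts.

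All 83 members passed the filter on low counts and were tested with edgeR's quasi-likelihood test, with Benjamini-Hochberg adjustment over 39439 genes. None was called higher and none lower in imiquimod at an adjusted p under 0.05, and adjusted p ran from 0.229 to 0.919. Over all genes tested, 0.0634% were called higher and 0.137% lower, so 0 of 83 is near that background. At an unadjusted p under 0.05 there were 0 members higher and 5 lower (Rpl32l, Rpl17, Rpl7a, Rpl35a and Rps27l), where 8.63% of all genes were higher and 5.1% lower. DESeq2 called 2 members lower, Rpl17 and Rpl35a, and 0 higher, where it called 8.25% lower and 0.0683% higher of the 8789 genes to which it gave an adjusted p, so those 2 calls do not stand out from its background.

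Log2 fold changes (imiquimod over Vaseline) of the core genes had a median of -0.77, and ran from -1.99 for Rpl17 to 0.13 for Rpl37a. Their standard errors (SE) of 0.66 to 1.42 were mostly as large as the fold changes. Among the 83 members, 4 had a positive value, against 60.6% of all genes tested, and the medians were -0.76 for members and 0.41 for all genes. Among genes above background, fitted alone, the medians were -0.15 for the 80 members it held and 0.076 for all 14479 genes, and 26 of those members had a positive value, against 55.6% of all. In that fit 0.0% of genes passed the threshold. Scaling by library totals alone moved the median of all genes by 0.89, to 1.30, and that of members to -0.10. Relative to the median of all genes, members lay at -1.40 on library totals and at -1.17 on TMM factors. The member median rested on single libraries: it was -2.33 without Imiquimod 1, 0.0021 without Imiquimod 2, -1.21 without Vaseline 1 and -0.30 without Vaseline 2. Without Imiquimod 2, 42 of 83 members had a positive value.

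Levels below are CPM after TMM normalisation, which rescales each library by a factor taken from the genes it shares with the others. Factors were 1.05 and 1.66 for Imiquimod 1 and 2, against 0.956 and 0.599 for Vaseline 1 and 2. Orders of the libraries given below depend on these factors. Of all counts, without them, members took the largest share in Imiquimod 1 (3.55%) and not in Vaseline 2 (2.59%). The median core gene stood at 311 CPM in Imiquimod 1 and 66.4 CPM in Imiquimod 2, against 236 CPM in Vaseline 1 and 397 CPM in Vaseline 2. Every one of the 76 core genes was lowest in Imiquimod 2. Of them, 68 were highest in Vaseline 2 and the other 8 in Imiquimod 1 (among them Rpl13, Rpl27 and Rpl37a). Of genes above background, 68.5% were lowest in Imiquimod 2 and 68.7% highest in Vaseline 2, so most other expressed genes shared these extremes. The median core gene was 4.90-fold higher in Imiquimod 1 than in Imiquimod 2, and 0.561-fold in Vaseline 1 relative to Vaseline 2. For 7 core genes both imiquimod libraries lay below both Vaseline libraries (Rpl17, Rpl35a, Rpl39, Rpl41, Rps2, Rps28 and Rps29) and for 0 above them, where 20.9% of all genes tested lay below and 30.5% above. For Rps28 and Rps29 this rested on the TMM factors. Scaled by library totals alone, both were higher in Imiquimod 1 than in either Vaseline library.

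**Figure D2:**
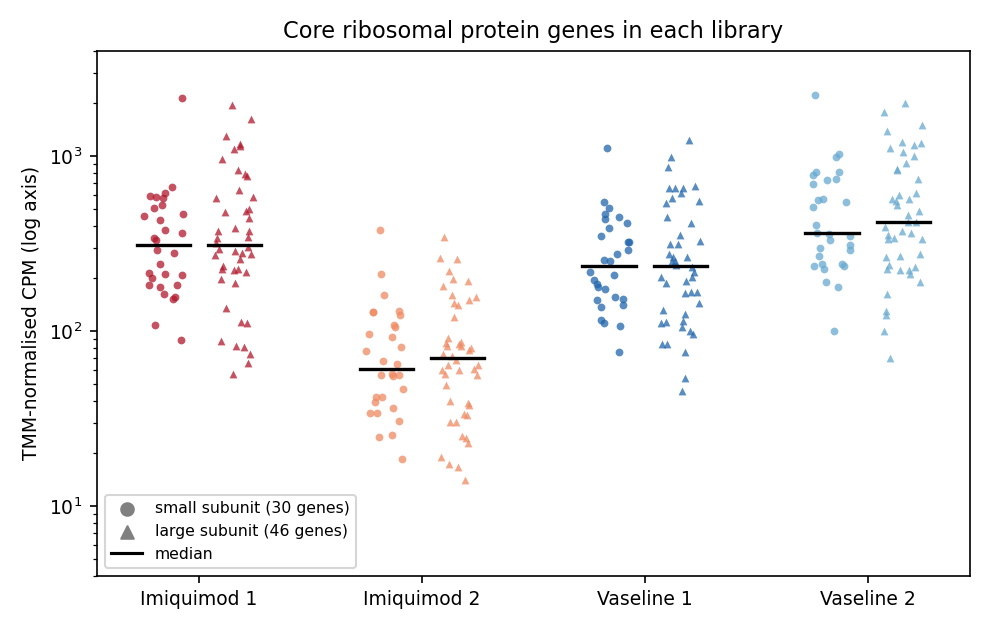
TMM-normalised CPM (log axis) of the 76 core genes in each library, circles for the small subunit, triangles for the large subunit and black bars for medians. Both subunits move as blocks: the medians of all core genes are 311 and 66.4 CPM in Imiquimod 1 and 2, and 236 and 397 CPM in Vaseline 1 and 2.

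Core genes are all far above the background, from 95.8 to 4586 times it in the mean over libraries. Per kilobase of the principal transcript, the mean level over the 4 libraries spanned 22.1-fold. Rpl26 led with 1511 and 304 CPM per kilobase in Imiquimod 1 and 2, against 1257 and 2660 in Vaseline 1 and 2. Rplp2, Rplp1, Rpl13a and Rplp0 followed, and Rps20 and Rpl15 came last, with means of 65.0 and 94.9 CPM per kilobase. The ends of the order held in the separate libraries: Rpl26 ranked from 1 to 3, Rplp0 from 4 to 6, and Rps20 75 or 76. In between, some genes changed place, such as Rps2 (from 21 in Imiquimod 2 to 66 in Imiquimod 1), Rps12 (from 29 to 61 over the libraries) and Rpl41 (from 9 to 30). Neighbours in the order do not differ beyond the spread over libraries. Rps20's principal transcript is the longest of the core genes (3706 bases against a median of 705), which lowers its value per kilobase. Without that scaling it stood at 290 and 56.3 CPM in Imiquimod 1 and 2, against 251 and 365 CPM in Vaseline 1 and 2.

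The small subunit decodes the message. Its 30 core genes had a median log2 fold change of -0.81, from -1.22 for Rps2 to -0.41 for Rpsa, and all 30 values were negative. Rpsa, which is also known as the laminin receptor, gave the most counts of any small subunit gene, at 2138 and 379 CPM in Imiquimod 1 and 2, against 1119 and 2230 CPM in Vaseline 1 and 2. Imiquimod 1 and Vaseline 2 were nearly level, and the fold change of -0.41 ± 1.42 (SE) did not pass the test (adjusted p = 0.876). Rps6, the substrate of S6 kinase downstream of mTOR, stood at 663 and 161 CPM in Imiquimod 1 and 2, against 503 and 1022 CPM in Vaseline 1 and 2. Its fold change was -0.89 ± 1.09 (SE, adjusted p = 0.638), with overlapping groups.

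Rps3, a protein of the mRNA entry channel, had 578 and 213 CPM in Imiquimod 1 and 2, against 544 and 984 CPM in Vaseline 1 and 2. Rps2, its neighbour at that channel, had 211 and 129 CPM in Imiquimod 1 and 2, against 276 and 513 CPM in Vaseline 1 and 2. Both imiquimod libraries lay below Vaseline for Rps2 and not for Rps3, and neither passed (log2 -1.22 ± 0.91 and -0.95 ± 1.09, adjusted p = 0.475 and 0.615). Rps27, a zinc-binding protein, had 201 and 33.9 CPM in Imiquimod 1 and 2, against 106 and 226 CPM in Vaseline 1 and 2. Its fold change of -0.51 ± 0.77 (adjusted p = 0.705) is among the smaller ones of this subunit.

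Among small subunit genes that are mutated in human Diamond-Blackfan anaemia, 3 are given here as examples. Rps19 stood at 281 and 55.9 CPM in Imiquimod 1 and 2, against 208 and 351 CPM in Vaseline 1 and 2. Rps24 had 523 and 129 CPM in Imiquimod 1 and 2, against 416 and 739 CPM in Vaseline 1 and 2. Rps26 had 431 and 77.0 CPM in Imiquimod 1 and 2, against 322 and 570 CPM in Vaseline 1 and 2. In each of these 3 the order of the libraries was Vaseline 2, Imiquimod 1, Vaseline 1 and Imiquimod 2, and the log2 fold changes were -0.74, -0.83 and -0.82 (adjusted p = 0.618, 0.638 and 0.621). Rps29 and Rps28, small proteins of the subunit's head that are mutated in the same disease, had another order. After TMM normalisation they were among the genes with both imiquimod libraries below Vaseline, but not when scaled by library totals alone. Rps29 had 108 and 25.3 CPM in Imiquimod 1 and 2, against 111 and 179 CPM in Vaseline 1 and 2, so Imiquimod 1 and Vaseline 1 differed by little.

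The large subunit joins amino acids. Its 46 core genes had a median log2 fold change of -0.68, and 1 of them was positive. Rpl3, which lies near the peptidyl transferase centre, had 961 and 221 CPM in Imiquimod 1 and 2, against 670 and 1196 CPM in Vaseline 1 and 2 (log2 -0.66 ± 1.17, adjusted p = 0.750). Rpl10, which joins the subunit late in its assembly, had 285 and 84.9 CPM in Imiquimod 1 and 2, against 275 and 566 CPM in Vaseline 1 and 2 (log2 -1.19 ± 0.92, adjusted p = 0.489). Rpl4, which lines the exit tunnel, had 1303 and 259 CPM in Imiquimod 1 and 2, against 861 and 1514 CPM in Vaseline 1 and 2. For all 3, the groups overlapped because Imiquimod 1 exceeded Vaseline 1.

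Rpl5 and Rpl11, the partners of 5S ribosomal RNA and of Mdm2, did not separate the groups either. Rpl5 had 1144 and 182 CPM in Imiquimod 1 and 2, against 654 and 1191 CPM in Vaseline 1 and 2 (log2 -0.48 ± 1.18, adjusted p = 0.823). Exons of other genes cover 26.7% of its exonic bases, and their reads may not be told apart from its own. Rpl11 had 258 and 64.1 CPM in Imiquimod 1 and 2, against 203 and 375 CPM in Vaseline 1 and 2 (log2 -0.85 ± 0.85, adjusted p = 0.574). Among 12 genes of the p53 response to ribosome failure, 0 were called higher and 0 lower, with a median log2 fold change of -0.84 (-0.15 with genes above background fitted alone). Of these, Bax, which opens the mitochondrial outer membrane, stood at 9.75 and 9.14 CPM in Imiquimod 1 and 2, against 16.7 and 29.9 CPM in Vaseline 1 and 2 (adjusted p = 0.338).

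The acidic stalk, which recruits elongation factors, is made of Rplp0, Rplp1 and Rplp2. Rplp0 had 1963 and 345 CPM in Imiquimod 1 and 2, against 1230 and 2015 CPM in Vaseline 1 and 2 (log2 -0.49 ± 1.40, adjusted p = 0.847). Rplp1 had 836 and 157 CPM in Imiquimod 1 and 2, against 573 and 914 CPM in Vaseline 1 and 2 (log2 -0.58 ± 1.10, adjusted p = 0.765). Rplp2 had 574 and 144 CPM in Imiquimod 1 and 2, against 541 and 1051 CPM in Vaseline 1 and 2 (log2 -1.15 ± 1.09, adjusted p = 0.554). For each of the 3, Imiquimod 1 lay between the Vaseline libraries.

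Rpl39 and Rpl41 are the smallest proteins of the large subunit, and Rpl39 sits in the exit tunnel. Rpl39 had 66.1 and 19.2 CPM in Imiquimod 1 and 2, against 84.5 and 130 CPM in Vaseline 1 and 2 (log2 -1.35 ± 0.70, adjusted p = 0.368). Rpl41 had 236 and 85.2 CPM in Imiquimod 1 and 2, against 266 and 567 CPM in Vaseline 1 and 2 (log2 -1.38 ± 0.91, adjusted p = 0.440). In both, the 2 imiquimod libraries lay below the 2 Vaseline libraries. Across the core genes, the log2 fold change had a Spearman correlation of 0.14 with the length of the principal transcript (76 genes of the same 4 libraries, a description with no test).

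Rpl17 had the lowest fold change of the core genes. It had 57.1 and 24.4 CPM in Imiquimod 1 and 2, against 96.4 and 225 CPM in Vaseline 1 and 2 (log2 -1.99 ± 0.75, adjusted p = 0.262). Rpl7a (ENSMUSG00000062647, chr2:26910764-26913318, plus strand) had 88.2 and 17.4 CPM in Imiquimod 1 and 2, against 84.5 and 267 CPM in Vaseline 1 and 2 (log2 -1.75 ± 0.76, adjusted p = 0.319). Rpl35a (ENSMUSG00000060636, chr16:33056453-33060189, plus strand) had 74.3 and 37.7 CPM in Imiquimod 1 and 2, against 131 and 233 CPM in Vaseline 1 and 2 (log2 -1.71 ± 0.76, adjusted p = 0.326). Both imiquimod libraries lay below Vaseline for Rpl17 and Rpl35a, whereas Imiquimod 1 exceeded Vaseline 1 for Rpl7a. DESeq2 gave log2 fold changes of -2.32 for Rpl17 (adjusted p = 0.0285) and -2.02 for Rpl35a (adjusted p = 0.0399). Rpl17 is a neighbour of the exit tunnel, and RPL35A is mutated in some human families with Diamond-Blackfan anaemia.

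Rpl37a (ENSMUSG00000046330, chr1:72711290-72713813, plus strand), a zinc-binding protein of the large subunit, stood at the other end. It had 113 and 14.1 CPM in Imiquimod 1 and 2, against 45.6 and 69.8 CPM in Vaseline 1 and 2, so that the imiquimod libraries enclosed the Vaseline ones. Its log2 fold change was 0.13 ± 0.66 (adjusted p = 0.919), and the sign turned under DESeq2, RLE factors, limma-voom and the replicate block. Its level in Imiquimod 2 was the lowest of any core gene in any library.

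To set scaling between libraries aside, each gene was also expressed per 10000 ribosomal protein counts of its own library. The ratio of large to small subunit counts was 1.85 and 1.67 in Imiquimod 1 and 2, against 1.71 and 1.76 in Vaseline 1 and 2. Its log2 averaged 0.81 ± 0.10 in imiquimod and 0.79 ± 0.031 in Vaseline (SD, n = 2 each), a difference of 0.020 with a two-sided exact permutation p of 1.0. Again the imiquimod libraries enclosed the Vaseline ones. The mean share of a gene in the total differed by at most 0.25 on the log2 scale between the groups for 57 of the 76 core genes, and by at most 0.5 for 72. The other 4 were Rpl7a (-0.92), Rpl17 (-0.82), Rpl35a (-0.51) and Rpl37a (0.61). With summed member counts as the library size, the smallest adjusted p of any member was 0.734 in edgeR's quasi-likelihood test.

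Composition differed as much within imiquimod as between the groups. Between the 2 Vaseline libraries the median absolute log2 difference of a core gene's share was 0.112, with a Pearson correlation over the 76 genes of 0.986. Between the 2 imiquimod libraries it was 0.209, with a correlation of 0.937. Imiquimod 1 against Vaseline 1 gave the largest median of the 6 pairs, 0.246, while Imiquimod 2 differed from Vaseline 1 and Vaseline 2 by 0.135 and 0.132. Imiquimod 2, with the lowest share of ribosomal protein counts, was thus nearer in composition to Vaseline than Imiquimod 1 was. These correlations are over genes that share libraries and are descriptions with no test.

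Single genes varied in different ways. Rps2 made up 62.4 and 188 of 10000 ribosomal protein counts in Imiquimod 1 and 2, against 117 and 119 in Vaseline 1 and 2, the widest gap between the imiquimod libraries (log2 -1.59, Imiquimod 1 over Imiquimod 2). Rpl35a made up 22.0 and 55.0 in Imiquimod 1 and 2, against 55.5 and 54.1 in Vaseline 1 and 2, so Imiquimod 1 alone was low. Rpl17 made up 16.9 and 35.5 in Imiquimod 1 and 2, against 40.8 and 52.1 in Vaseline 1 and 2. Rpl37a made up 33.6 and 20.6 in Imiquimod 1 and 2, against 19.3 and 16.2 in Vaseline 1 and 2, so both imiquimod libraries were high. Rpl7a made up 26.1 and 25.4 in Imiquimod 1 and 2, against 35.8 and 61.8 in Vaseline 1 and 2. Here the imiquimod libraries were alike and the Vaseline ones differed by 0.79 on the log2 scale (-0.79, Vaseline 1 over Vaseline 2).

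**Figure D3:**
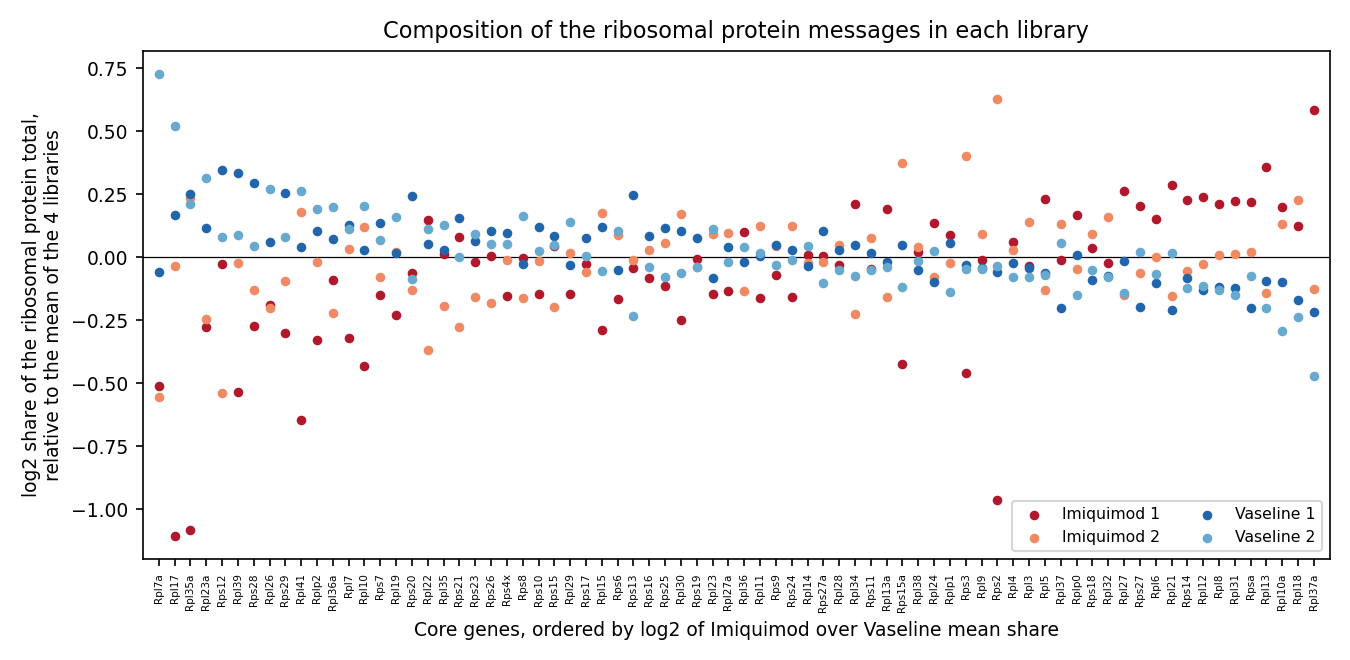
Log2 of each core gene's share of the ribosomal protein counts in each library, relative to its mean share over the 4 libraries, with genes ordered by imiquimod over Vaseline and 2 genes not drawn. Group means of 57 of the 76 genes lie within 0.25 of each other, Rpl7a, Rpl17, Rpl35a and Rpl37a stand at the ends, and Rps2 and Rps3 split the 2 imiquimod libraries.

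Some genes at those ends have many processed pseudogene counts. The table held 319 pseudogene rows of ribosomal proteins, 317 of them named for a member, covering 62 members. Their counts came to 14.8% and 16.6% of the member counts in Imiquimod 1 and 2, against 14.7% and 13.5% in Vaseline 1 and 2. How reads that match several places were counted is not given, so reads of a gene and its near-identical copies may have been split. The 11 pseudogene rows of Rpl17 held 282% of the counts of Rpl17 itself, the largest ratio of any member, and the 14 rows of Rpl7a held 96.2%. For Rpl35a (6 rows) and Rps2 (12 rows) it was 26.9% and 26.0%, and for Rpl37a (1 row) 0.289%. Values of Rpl17, Rpl7a and other members with high ratios, such as Rpl15 (113%) and Rps13 (86.1%), are therefore uncertain.

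With the pseudogene counts added to each gene, Rpl17 and Rpl7a moved to the others. A large added pool pulls a gene towards the pool's own value. The addition therefore cannot tell split reads from a lower level of the gene itself. Rpl31 and Rpl21 moved down, from -0.39 to -0.84 and from -0.45 to -0.76. Rpl17 then had a log2 fold change of -1.02 ± 1.01 (adjusted p = 0.567), and Rpl7a one of -0.99 ± 0.88 (adjusted p = 0.527). Rpl35a stood at -1.40 (adjusted p = 0.395) and Rps2 at -0.89, while Rpl37a stayed at 0.13. The number of core genes with an unadjusted p under 0.05 was 0, against 3 without the addition. Their lowest fold change was then -1.40, and the SD over the 76 fold changes was 0.27, against 0.34 without it. Of the shares in the ribosomal protein total, 60 of 76 were within 0.25 between the groups, against 57. Rpl17 made up 119 and 129 of 10000 in Imiquimod 1 and 2, against 145 and 152 in Vaseline 1 and 2. Imiquimod 1, at 16.9 of 10000 for the gene row alone, was thus nearer the other libraries once the copies were counted with it. It was still the lowest, and both imiquimod libraries stayed below both Vaseline libraries. Of 258 pseudogene rows tested, 0 were called higher and 1 lower, Rps18-ps4, which had 0 and 3.73 CPM in Imiquimod 1 and 2, against 61.7 and 0 CPM in Vaseline 1 and 2. Nearly all its counts were in Vaseline 1, and the row had no count in 1 library of each group.

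**Figure D4:**
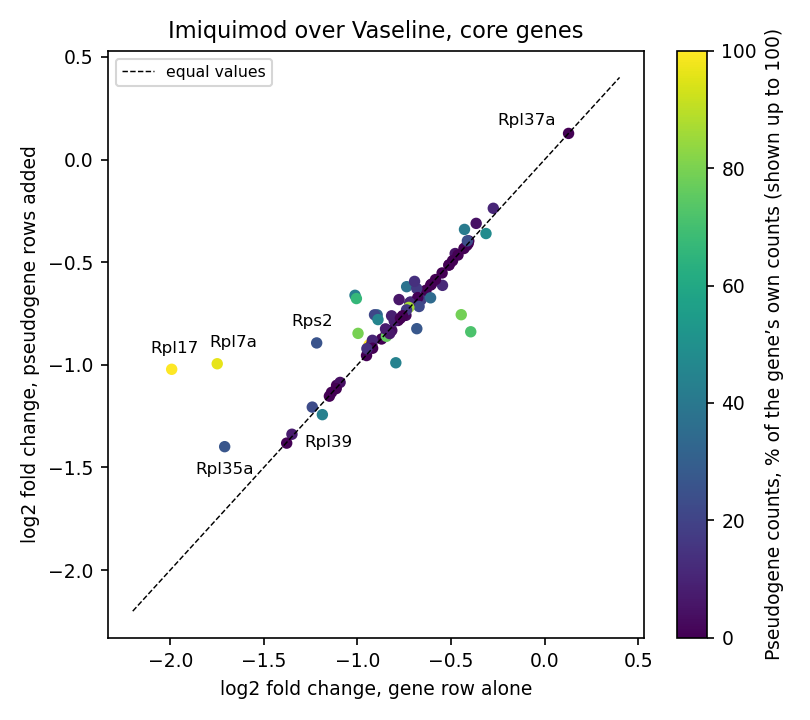
Log2 fold change of each core gene alone (x axis) and with its pseudogene rows added (y axis), coloured by pseudogene counts as a percent of the gene's own counts, up to 100. Most genes lie on the line of equal values. Rpl17 and Rpl7a lie above it, moving to -1.02 and -0.99, and Rpl31 and Rpl21 lie below it.

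The 7 paralog and retrogene rows fall into 2 sets. Rpl3l, Rpl10l and Rpl39l, genes known for expression in muscle or testis, were near the background, at 2.36, 2.14 and 2.01 times it. Rpl39l had 24 and 30 counts in Imiquimod 1 and 2, against 40 and 0 in Vaseline 1 and 2, and its value is not separable from the background at this depth. Rpl10l had 18 and 47 counts in Imiquimod 1 and 2, against 39 and 16 in Vaseline 1 and 2. Rpl3l had 32 and 56 counts in Imiquimod 1 and 2, against 72 and 34 in Vaseline 1 and 2. These 3 had positive fold changes (1.23, 0.98 and 0.51 on the log2 scale, adjusted p = 0.508, 0.556 and 0.726).

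Rps27l, a p53-responsive paralog of Rps27, was expressed at 8.03 and 5.50 CPM in Imiquimod 1 and 2, against 14.4 and 18.3 CPM in Vaseline 1 and 2. Both imiquimod libraries lay below Vaseline, and the fold change of -1.30 ± 0.61 did not pass (adjusted p = 0.339). Rpl32l, annotated as a processed pseudogene, had 1.72 and 2.27 CPM in Imiquimod 1 and 2, against 5.16 and 10.5 CPM in Vaseline 1 and 2 (log2 -1.93 ± 0.69, adjusted p = 0.229, the smallest of any member). Rps4l, a transcribed processed pseudogene, had 17.4 and 8.88 CPM in Imiquimod 1 and 2, against 15.02 and 27.1 CPM in Vaseline 1 and 2 (log2 -0.71 ± 0.60, adjusted p = 0.516). Rpl6l had 87.7 and 16.5 CPM in Imiquimod 1 and 2, against 50.2 and 107 CPM in Vaseline 1 and 2 (log2 -0.61 ± 0.67, adjusted p = 0.602). The retrogene rows are near-identical copies of abundant genes, so their values are uncertain.

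Cytosolic ribosomal proteins outside the symbol pattern (7 genes) had 0 calls in either direction and a median log2 fold change of -0.98 (-0.21 with genes above background fitted alone). Fau, made as a fusion with a ubiquitin-like protein, had 561 and 100 CPM in Imiquimod 1 and 2, against 318 and 650 CPM in Vaseline 1 and 2. Rps27a, a core gene that is made as a ubiquitin fusion, had 339 and 67.7 CPM in Imiquimod 1 and 2, against 254 and 402 CPM in Vaseline 1 and 2. Both repeat the order seen in the core genes.

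Other genes of the translation machinery had no call in edgeR's test in either direction. Among 10 elongation factors, 28 initiation factors and 22 other TOP transcripts the median log2 fold changes were -0.66, -0.76 and -0.66, and every value was negative. The medians of elongation factors and other TOP transcripts were identical to every digit, so these lists share genes and are not independent. With genes above background fitted alone, the medians were 0.053, -0.055 and -0.0020. Nap1l1, a histone chaperone with a TOP message, was the most different of that list, at 112 and 59.4 CPM in Imiquimod 1 and 2, against 273 and 662 CPM in Vaseline 1 and 2 (log2 -2.45 ± 0.94, adjusted p = 0.274). Eif4e, the cap-binding factor, had 92.6 and 45.2 CPM in Imiquimod 1 and 2, against 112 and 207 CPM in Vaseline 1 and 2 (adjusted p = 0.418). Eif5a, which helps ribosomes past stalls, had 271 and 139 CPM in Imiquimod 1 and 2, against 307 and 614 CPM in Vaseline 1 and 2 (adjusted p = 0.501). For these 3 genes both imiquimod libraries lay below Vaseline.

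Counts of such lists can be set against the ribosomal protein counts of the same library. Elongation factors had 0.233 and 0.302 counts per ribosomal protein count in Imiquimod 1 and 2, against 0.246 and 0.241 in Vaseline 1 and 2. Initiation factors had 0.213 and 0.385 in Imiquimod 1 and 2, against 0.273 and 0.263 in Vaseline 1 and 2. Other TOP transcripts had 0.423 and 0.637 in Imiquimod 1 and 2, against 0.597 and 0.654 in Vaseline 1 and 2. Biogenesis factors had 0.149 and 0.237 in Imiquimod 1 and 2, against 0.160 and 0.137 in Vaseline 1 and 2. In all 4 of these lists, some of which share genes, the ratio was lower in Imiquimod 1 than in Imiquimod 2. The place of the Vaseline libraries differed. Both lay between the imiquimod libraries for elongation and initiation factors, while Vaseline 2 was highest for the TOP transcripts and lowest for the biogenesis factors. Each ratio has the ribosomal protein count as its denominator and so moves with it.

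Genes that make ribosomes were described the same way. Among 39 biogenesis factors the median log2 fold change was -0.51 (0.20 with genes above background alone), with 0 calls. Tcof1, a factor of ribosomal RNA transcription, had 79.8 and 60.4 CPM in Imiquimod 1 and 2, against 189 and 211 CPM in Vaseline 1 and 2 (log2 -1.51 ± 0.78, adjusted p = 0.365). Among 24 subunits of RNA polymerases I and III the median was -0.58 (0.17), and among 21 genes of growth signalling to ribosomes it was -0.74 (0.011), with 0 calls in both. Akt1, a kinase upstream of mTOR, had 107 and 56.3 CPM in Imiquimod 1 and 2, against 171 and 297 CPM in Vaseline 1 and 2 (adjusted p = 0.373). The 78 mitochondrial ribosomal proteins had a median of -0.67 (0.085) and 0 calls. Factors of the nascent chain (19 genes) had a median of -0.93 (-0.19), the proteasome core (14 genes) -0.95 (-0.21), and the integrated stress response (14 genes) -0.73 (-0.020), with 0 calls in each.

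**Figure D5:**
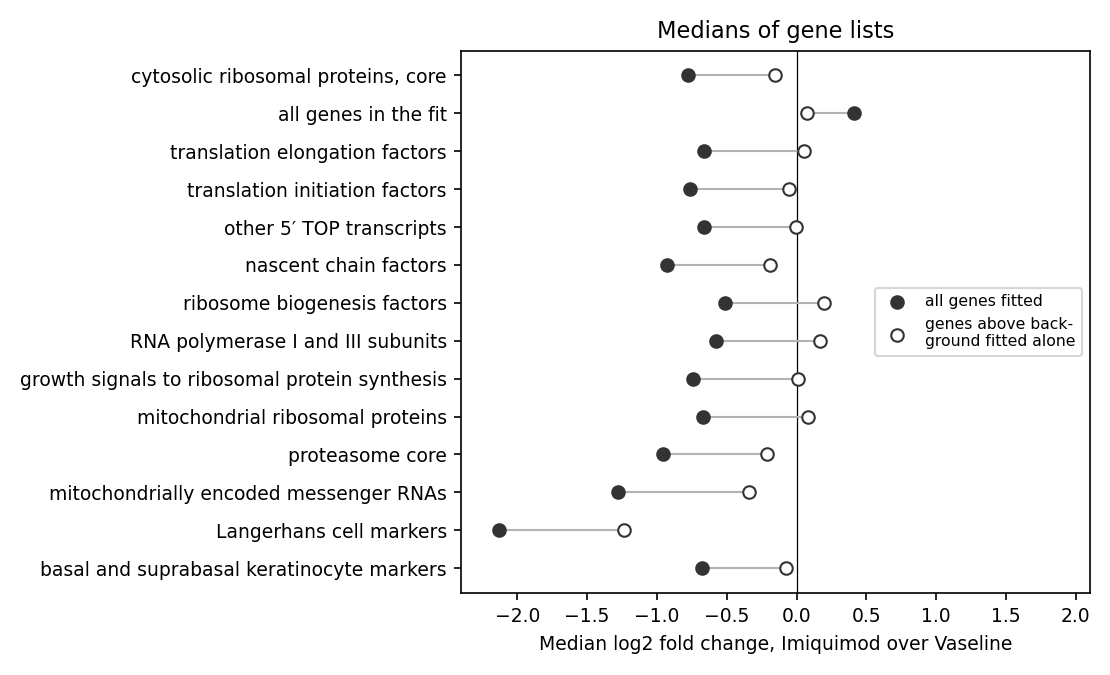
Median log2 fold change, imiquimod over Vaseline, of core ribosomal protein genes, of all genes in each fit, and of other lists, with all genes fitted (filled) and genes above background fitted alone (open). Core ribosomal protein genes lie at -0.77 and -0.15, near the other translation lists, and Langerhans cell markers lie lowest.

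Cell markers moved between libraries as well. Cd207, which encodes the Langerhans cell lectin langerin, had 1199 and 573 CPM in Imiquimod 1 and 2, against 2250 and 6869 CPM in Vaseline 1 and 2. Krt14, a keratin of basal keratinocytes, had 6488 and 1722 CPM in Imiquimod 1 and 2, against 5548 and 7489 CPM in Vaseline 1 and 2, and so exceeded Cd207 in every library. The 16 Langerhans cell markers summed to 9798 and 8062 CPM in Imiquimod 1 and 2, against 25922 and 67958 CPM in Vaseline 1 and 2, with 0 of 16 called and a median of -2.13. The 14 keratinocyte markers summed to 24534 and 6197 CPM in Imiquimod 1 and 2, against 24361 and 27947 CPM in Vaseline 1 and 2, with 0 of 14 called. Like the ribosomal protein genes, the summed keratinocyte markers were lowest in Imiquimod 2. So were the summed Langerhans cell markers and 68.5% of genes above background, all on TMM-normalised CPM. As a share of all counts, the Langerhans cell markers were instead lowest in Imiquimod 1. They took 1.03% and 1.34% in Imiquimod 1 and 2, against 2.48% and 4.07% in Vaseline 1 and 2. Keratinocyte markers took 2.58% and 1.03% in Imiquimod 1 and 2, against 2.33% and 1.67% in Vaseline 1 and 2, still lowest in Imiquimod 2. The ribosomal protein counts are those of all cells in the library, and the part of keratinocytes in them was not tested.

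Markers of cells that enter inflamed skin did not move together. Among 12 neutrophil markers, 2 were called higher (Mmp8 and S100a8, the second also made by activated keratinocytes). Mmp8 had 2.74 and 21.8 CPM in Imiquimod 1 and 2, against 1.87 and 0.505 CPM in Vaseline 1 and 2. It was thus high in Imiquimod 2 alone. The neutrophil list summed to 602 and 685 CPM in Imiquimod 1 and 2, against 881 and 2409 CPM in Vaseline 1 and 2. Its summed CPM was lower in both imiquimod libraries. Yet 10 of the 12 fold changes were positive and 2 negative, with a median log2 of 1.58. S100a8 had 16.1 and 48.0 CPM in Imiquimod 1 and 2, against 0.772 and 9.20 CPM in Vaseline 1 and 2. Of all counts the list took 0.0634% and 0.114% in Imiquimod 1 and 2, against 0.0842% and 0.144% in Vaseline 1 and 2. With genes above background fitted alone, the 5 markers held had a median of 3.64. That fit called 0.0% of all genes, so its 0 calls here are no result about these markers. Of 10 activated keratinocyte markers S100a8 was the 1 called, and all 10 had positive fold changes, with a median log2 of 1.39. The list summed to 1500 and 642 CPM in Imiquimod 1 and 2, against 355 and 803 CPM in Vaseline 1 and 2. Of all counts it took 0.158% and 0.106% in Imiquimod 1 and 2, against 0.0339% and 0.0481% in Vaseline 1 and 2. On that measure both imiquimod libraries lay above Vaseline. Among lists of monocyte (10 genes), T cell (13), endothelial (7), melanocyte (7) and erythroid (4) markers, 0 genes were called. Ighm was the 1 lower call of 8 B cell markers, and Col3a1 that of 8 fibroblast markers.

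Other classes of RNA differed between libraries too. The list of structural RNA genes (7 tested, 0 called) also held the long non-coding RNAs Malat1 and Neat1. It took 4.71% and 9.67% of all counts in Imiquimod 1 and 2, against 5.71% and 6.52% in Vaseline 1 and 2. Imiquimod 2, the library with the lowest ribosomal protein share, had the largest share of this list and Imiquimod 1 the smallest. Mitochondrially encoded messages (13 tested, 0 called) took 0.377% and 0.774% of all counts in Imiquimod 1 and 2, against 0.786% and 0.841% in Vaseline 1 and 2, so both imiquimod libraries lay below Vaseline. The part of library make-up, or of the background, in the ribosomal protein levels was not tested.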

How the data were processed

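Total RNA of isolated ear Langerhans cells was sequenced in 4 libraries, 2 per treatment. A DirectZol MicroPrep kit (Zymo) gave the RNA, of which 10 to 70 ng was turned, per the labels' protocols, into SMARTer Stranded Total RNA-Seq Pico Input libraries. The tools were HISAT2, StringTie, SAMtools and Trimmomatic, on GRCm38, per the submitters' processing notes. Versions, annotation, strand setting and the treatment of multi-mapped reads are not given in the sources used here. The values the authors deposited are unscaled counts per gene.

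Counts were fitted with edgeR 4.0.16 (R 4.3.3; TMM factors, filterByExpr with minimum count 10 and total 15, current quasi-likelihood form, two-sided), which kept 39439 of 55487 genes, with Benjamini-Hochberg adjustment over those and a threshold of 0.05. TMM factors were 1.05 and 1.66 for Imiquimod 1 and 2, against 0.956 and 0.599 for Vaseline 1 and 2. SE is the fold change over the root of F. The fit was tested on simulated data. DESeq2 1.42.0, limma-voom 3.58.1 and other settings were alternatives. Gene models were GENCODE vM21 (55227 IDs matched), with overlaps by bedtools 2.31.1. Exons of other genes cover at least 20% of the exonic bases of 11 members and none of 46. Genes above background had a mean of at least 5 times the receptor-gene background.

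Values are given for members by role, the 4 smallest p in each direction, the 2 highest and 2 lowest mean levels, and the 2 fold changes farthest from the member median each way, and for up to 3 genes of smallest p per other list. Rps12, Rps20, Rps28, Rpl15, Rps13 and Rpl6l were added after their values were seen, and 1 copy of the 5S RNA gene family was then dropped from the structural RNA list. Members and gene lists were chosen with earlier results of these data known. Some alternatives were added after seeing the data (summed member counts as library size, the older quasi-likelihood form, paralog rows left out of the subunit ratio, and the share of genes above background). Some genes are counted in the totals but not reported by name here.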

Additional observations from a re-analysis of the deposited data

How the results depend on the processing

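Members had 0 calls in either direction under every setting run other than DESeq2, with 2 lower, and the fit without Vaseline replicate 1, so the calls ran from 0 to 1 higher (Rpl39l) and 0 to 1 lower (Rpl32l) when 1 library was left out; a group of 1 is then assumed to vary like the other. In those fits the member median ran from -2.33 (without Imiquimod replicate 1) to 0.0021 (without Imiquimod replicate 2), the small subunit median from -2.36 to -0.080, the large subunit median from -2.31 to 0.067, positive members from 3 to 42, and the log2 ratio of the member share from -1.09 to 0.55. With all libraries kept, the member median was -0.10 on library totals and -0.15 with genes above background fitted alone. With 1 library left out, only the fit without Imiquimod 2 gave a member median that was not negative. Without Vaseline 2 it was -0.30. Calls over all genes then ran from 8 to 2958 higher and from 0 to 317 lower. They were otherwise 14 lower with RLE factors, 41 higher with upper-quartile factors, 8 higher and 5 lower on library totals, 6 and 725 with DESeq2, 41 and 136 with limma-voom, 0 and 0 with no filter, 124 lower with the stricter filter (10 counts per library and 50 in total), 0 and 0 among genes above background, and 3 and 5 with the older quasi-likelihood form. Positive members numbered 32 on library totals, 26 above background and 38 on summed member counts. The cause of these shifts was not tested.

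Signs of named members turned as follows, none past the threshold. Rpl37a was -0.11 with RLE factors, -0.13 with DESeq2 and -0.38 with limma-voom. Library totals gave Rpl3 0.022, Rpl5 0.17, Rplp0 0.15, Rplp1 0.058, Rps27 0.17, Rps4l 0.10 and Rpsa 0.26. Genes above background alone gave Rpl5 0.13, Rplp0 0.11, Rplp1 0.027, Rps27 0.13, Rps4l 0.067 and Rpsa 0.22. Summed member counts gave Rpl3 0.11, Rpl5 0.13, Rplp0 0.14, Rplp1 0.073, Rps2 0.053, Rps27 0.17, Rps3 0.062, Rps4l 0.35 and Rpsa 0.26. With 1 library left out, Rpl37a ran from -2.11 to 0.98, Rpl3 from -2.15 to 0.049, Rpl5 from -2.42 to 0.32, Rplp0 from -2.31 to 0.28, Rplp1 from -2.32 to 0.18, Rps27 from -2.37 to 0.28, Rpsa from -2.22 to 0.36 and Rpl3l from -0.014 to 1.16.

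Replicate numbers occur in both groups, but the labels pair no libraries, and same-numbered deviations from the group means correlated at -0.33 over 39439 genes. With a replicate block there were 0 member calls, a member median of -1.09, 1 gene called higher and 0 lower over all genes, and Rpl37a was -0.45. Depth limits the 3 paralogs near background, while core genes had at least 485 counts in each library.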
